A study of Arabidopsis thaliana with 13 samples.

Results

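The ATG8 family and ATG3, genes of the conjugation step of autophagy, were followed over a diurnal and circadian time course in Arabidopsis thaliana plants on 13 spotted cDNA arrays. The members were the array features that the platform annotation assigns to ATG3 or to an ATG8 gene. These were 9 of the 12800 features and 7 of the 3689 named genes: ATG3 (AT5G61500), APG8A (AT4G21980), ATG8C (AT1G62040), ATG8D (AT2G05630), ATG8E (AT2G45170), ATG8F (AT4G16520) and APG8H (AT3G15580). ATG3 had 3 features and each ATG8 gene had 1. The array name APG8H belongs to the gene whose synonym in the current gene table is ATG8I, and it is kept here as the array gives it. The genes had been picked out with the values on these same arrays in view, so their values are given below as a description, and no test of them is offered as support.

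Each array compared total RNA from plants at 2 times of one time course in 2 dye channels. There were 2 arrays of 6 h against 0 h, 5 of 12 h against 0 h, 2 of 18 h against 0 h, and 1 each of 24 h against 0 h, 36 h against 24 h, 36 h against 24 h with both times marked dark, and 60 h against 48 h. For the last array the labels state that plants raised with alternating 12 h of light and 12 h of dark went into continuous light and were collected 24 and 36 h later. What light the other plants had is not in the labels, nor are genotype, ecotype, tissue, age and the time of day of 0 h. The word biological stands on 3 arrays. Separate cultures are stated for none, so a p-value measures how far arrays scatter, and that scatter may be technical in part. The deposited values are log2 ratios of the channels, so the arrays hold changes between times and no expression levels. The median of each array was set to 0, and a positive value means more RNA at the later time. The direction rests on the usual form of channel 2 over channel 1, which the sources used here do not state. That the dark-induced genes MCCA, MCCB and IVD read higher on the dark array under this reading also entered the choice. They read 3.52, 2.68 and 3.06 there, and 3.16, 2.77 and 3.02 on the array of 36 h against 24 h without the dark mark. The direction is called likely, and the other reading would turn every sign. Between 12446 and 12795 features had a value on an array. The standard deviation of the log2 ratios was 0.626 to 0.858 on 12 arrays and 0.382 on array 1 of 12 h against 0 h. That array correlated with the other 12 h arrays at −0.0504 to 0.0688 over all targets, and the 12 h means of the genes are given with and without it.

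Autophagy delivers cytoplasm and organelles to the vacuole in membrane sacs called autophagosomes. ATG8 proteins are small and ubiquitin-like. The protease ATG4 trims most of them, ATG7 activates them, and ATG3 passes them on to the lipid phosphatidylethanolamine. The lipid anchors them in the autophagosome membrane, where they bind cargo receptors. In plants the pathway is known for recycling proteins and chloroplast material when carbon runs short, as in leaves kept in darkness. The TOR kinase restrains it and the SnRK1 kinase promotes it.

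The data show 1 pattern in most of the family. ATG3, APG8A, ATG8E and ATG8F were higher at 36 h than at 24 h on both arrays of that interval, by 1.65-fold to 2.93-fold, and on both arrays they lay above all 5 arrays of 12 h against 0 h. ATG8D was higher at the later time on 12 arrays and lower on the array of 24 h. ATG8C was lower on all 5 arrays of 12 h and stood 2.47-fold lower at 36 h than at 24 h on the array without the dark mark, but not on the dark array. APG8H stayed between −0.43 and 0.59 on the log2 scale throughout. On the single array of 48 to 60 h, under continuous light, the 7 genes read between −0.20 and 0.66 on the log2 scale.

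**Figure D1:**
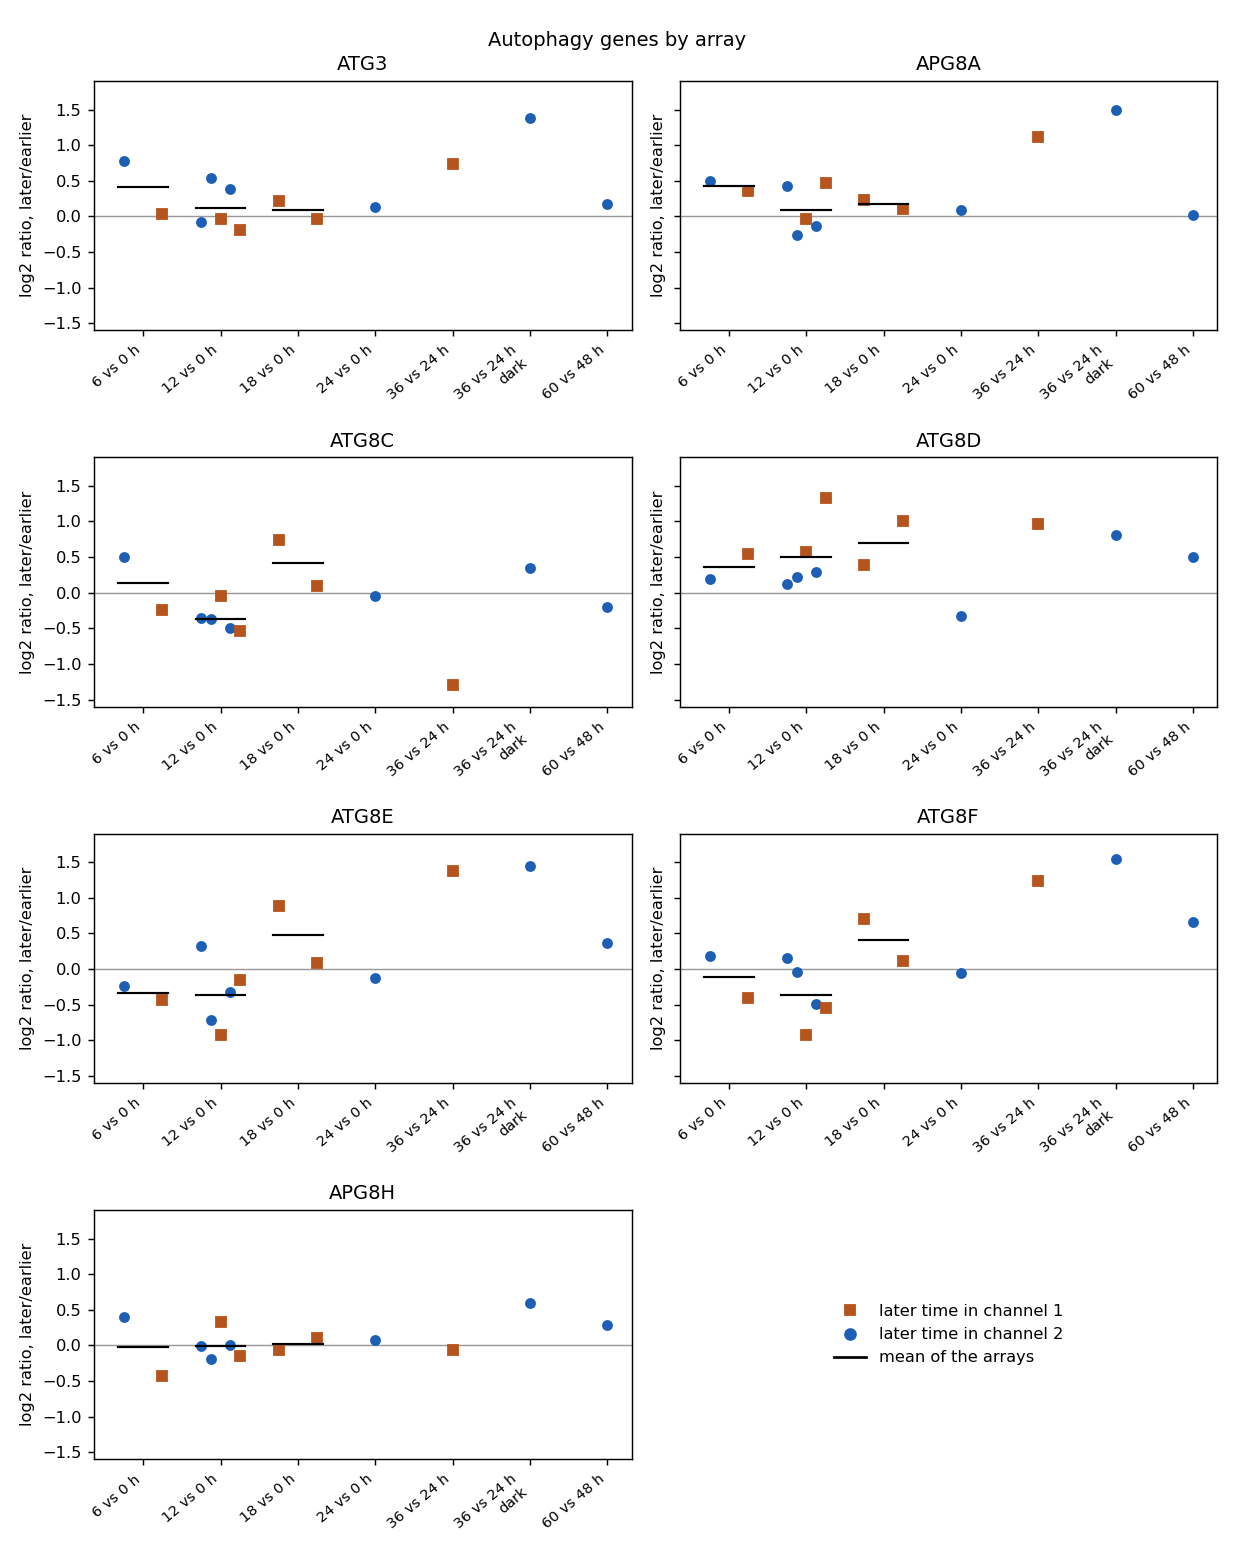
Centred log2 ratio of the later over the earlier time (vertical axis) for each of the 7 genes on each of the 13 arrays, grouped by the pair of times; symbols mark which channel held the later time, and bars mark the mean where a comparison has more than 1 array. APG8A, ATG8E and ATG8F are higher on both arrays of 36 h against 24 h than on any other, ATG3 is highest on the dark one, and ATG8C is at its lowest, −1.30, on the one without the dark mark.

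ATG3 is the enzyme that transfers every ATG8 protein to its lipid. Its log2 ratio, averaged over 3 features, was 0.78 and 0.04 on the arrays of 6 h, and −0.08, 0.54, −0.04, 0.38 and −0.19 on the 5 arrays of 12 h. It was 0.22 and −0.03 at 18 h, 0.13 at 24 h and 0.18 at 60 h. From 24 to 36 h it was 0.73, and 1.38 on the dark array. Values through the first 24 h scattered around 0, with a mean of 0.12 ± 0.32 at 12 h (SD, n = 5), or 0.18 ± 0.35 without array 1 (SD, n = 4). The dark array was the highest of the 13, and the lower of the arrays of 36 h lay 0.18 above the highest array of 12 h but just below array 1 of 6 h.

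The 3 ATG3 features did not read alike on the dark array. They are separate spots that report the same RNA extracts and are not replicates of a condition. On that array they gave 2.61, 0.65 and 0.88, an SD of 1.07, and the first of them lay above 99.3% of all features. On the other array of 36 h they gave 0.90, 0.52 and 0.77, an SD of 0.19. All 3 were therefore higher at 36 h on both arrays, and most of the gap between the arrays came from the first feature. That feature also stood apart on array 2 of 12 h, where the features read 1.21, −0.09 and 0.51. Over the 13 arrays the features correlated in pairs at r = 0.705, 0.629 and 0.838, and the pair without the first feature was the closest. The mean of features 2 and 3 was 0.64 at 36 h and 0.76 on the dark array, still above its highest 12 h value of 0.39. The fitted coefficients of ATG3 without the first feature were 0.83 ± 0.36 at 36 h and 0.58 ± 0.36 on the dark comparison (SE), against 0.98 and 1.13 with it.

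**Figure D2:**
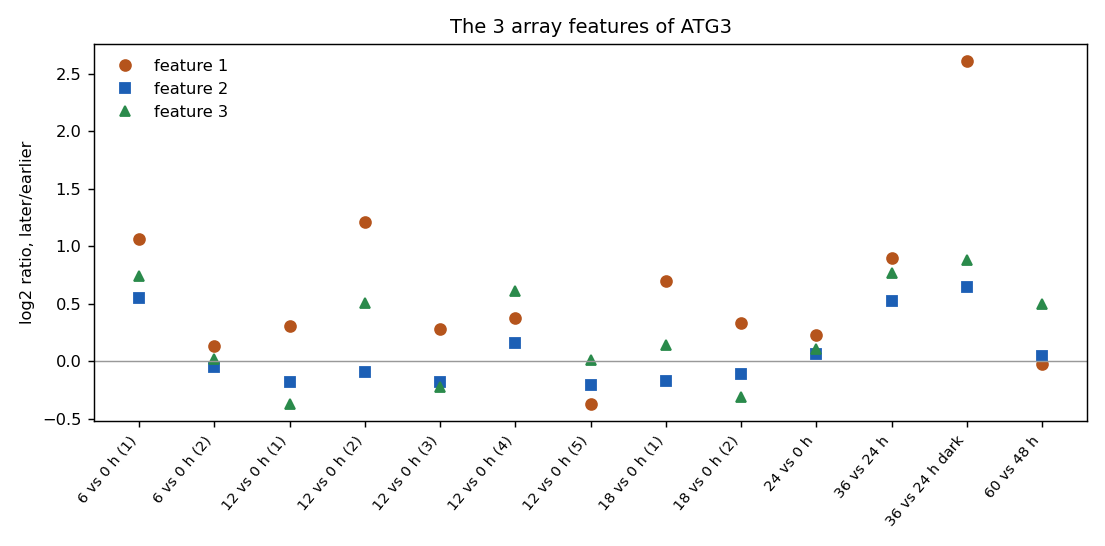
Centred log2 ratio (vertical axis) of the 3 features of ATG3 on each of the 13 arrays (horizontal axis, array number in brackets). On the dark array feature 1 reads 2.61 and the others 0.65 and 0.88.

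APG8A is an ATG8 protein and, like the rest of the family, the substrate of ATG3. It read 0.49 and 0.35 at 6 h, then 0.42, −0.26, −0.03, −0.13 and 0.47 on the 5 arrays of 12 h. At 18 h it read 0.23 and 0.11, at 24 h 0.09 and at 60 h 0.02. The 12 h arrays had no common sign, with a mean of 0.09 ± 0.33 (SD, n = 5), or 0.01 ± 0.32 without array 1 (SD, n = 4). At 36 h against 24 h it read 1.11, and 1.49 on the dark array, which are 2.16-fold and 2.82-fold higher. Both values lay at least 0.64 above every array of 12 h and above both arrays of 6 h.

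ATG8E and ATG8F moved in parallel. ATG8E read −0.24 and −0.44 at 6 h, 0.33, −0.72, −0.93, −0.32 and −0.16 at 12 h, and 0.88 and 0.08 at 18 h. It read −0.12 at 24 h, 0.36 at 60 h, 1.37 at 36 h and 1.45 on the dark array. The gene was thus lower on 4 of 5 arrays of 12 h and higher on both arrays of 36 h, with a gap of 1.04 between the 12 h arrays and the arrays of 36 h. ATG8F read 0.18 and −0.41 at 6 h, 0.15, −0.04, −0.92, −0.49 and −0.55 at 12 h, and 0.71 and 0.11 at 18 h. It read −0.05 at 24 h, 0.66 at 60 h, 1.24 at 36 h and 1.55 on the dark array. Here the gap was 1.09. Array 1 was the one 12 h array on which either gene was higher. The 12 h means were −0.36 ± 0.49 for ATG8E and −0.37 ± 0.43 for ATG8F (SD, n = 5). Without array 1 they were −0.53 ± 0.35 and −0.50 ± 0.36 (SD, n = 4). On the single array of 60 h ATG8E read 0.36 and ATG8F 0.66, against highest 12 h values of 0.33 and 0.15. The other 5 genes of the family lay inside their 12 h range on that array. The share of all targets outside theirs was not computed, so nothing is read from these positions.

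ATG8D differed from the genes above. It read 0.19 and 0.54 at 6 h, 0.12, 0.22, 0.57, 0.29 and 1.33 at 12 h, and 0.39 and 1.0 at 18 h. It read −0.32 at 24 h, 0.50 at 60 h, 0.96 at 36 h and 0.81 on the dark array. The 24 h array was the only one below 0, and the arrays of 36 h lay inside the range of the 12 h arrays, whose mean was 0.51 ± 0.49 (SD, n = 5), or 0.60 ± 0.51 without array 1 (SD, n = 4). The top of that range was array 5 alone. The other 12 h arrays read 0.12 to 0.57, with a mean of 0.30 ± 0.19 (SD, n = 4). Array 5 was set apart after its value was seen, so nothing is read from the values without it. The readings of ATG8D moved with the channel that held the later time. They were 0.39 to 1.33, with a mean of 0.80 ± 0.36 (SD, n = 6), on the arrays with the later time in channel 1, and −0.32 to 0.81, with a mean of 0.26 ± 0.35 (SD, n = 7), on the others. The fitted dye term of ATG8D was −0.62 ± 0.28 (SE), larger in size than that of 73.4% of all targets. Its part in the readings was not tested apart from that term.

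ATG8C was the one member lower at the later time on every 12 h array. It read 0.50 and −0.24 at 6 h, −0.36, −0.37, −0.04, −0.50 and −0.54 at 12 h, and 0.74 and 0.09 at 18 h. It read −0.04 at 24 h, −0.20 at 60 h, −1.30 at 36 h and 0.35 on the dark array. The mean at 12 h was −0.36 ± 0.20 (SD, n = 5), or −0.36 ± 0.23 without array 1 (SD, n = 4). The arrays of 36 h lay on opposite sides of all 12 h arrays, and no replicate of either exists. On the array without the dark mark only 5.28% of targets read lower than ATG8C, while on the dark array 71.6% did. Those arrays differ in channel order as well as in the dark mark, and over all targets they correlated at r = 0.708. The fitted dye term of ATG8C was 0.13 ± 0.29 (SE), and with it in the model the coefficients were −1.24 ± 0.41 and 0.28 ± 0.41 (SE).

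APG8H was the flattest of the family. It read 0.40 and −0.43 at 6 h, −0.01, −0.19, 0.33, 0.00 and −0.15 at 12 h, and −0.06 and 0.10 at 18 h. It read 0.07 at 24 h, 0.28 at 60 h, −0.06 at 36 h and 0.59 on the dark array. Its highest value was on the dark array, where it was 1.5-fold higher and above 82.4% of targets, and its values elsewhere lay on both sides of 0. At 12 h its mean was 0.00 ± 0.20 (SD, n = 5), or 0.00 ± 0.23 without array 1 (SD, n = 4).

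The intervals of 12 h can be set side by side for the whole family. On both arrays of 36 h, 4 of the 7 genes lay above all 5 arrays of 12 h against 0 h, and 0 lay below. Over all targets these shares were 13.4% and 18.4%. Without array 1 of 12 h the same 4 genes lay above the remaining 4 arrays, against 16.6% of targets. APG8A, ATG8E and ATG8F were at least 2-fold higher on both arrays of 36 h, which held for 4.6% of targets. On the array without the dark mark these 3 genes were at least 2-fold higher, against 10.1% of targets, and ATG8C was at least 2-fold lower, against 11.3%. On the dark array ATG3 was at least 2-fold higher too, against 8.08% of targets, and it reached that level through its first feature alone. ATG8D reached 2-fold on array 5 of 12 h and array 2 of 18 h, against 8.46% and 6.18% of targets. Since the genes were picked with these arrays known, nothing is read from these shares.

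**Figure D3:**
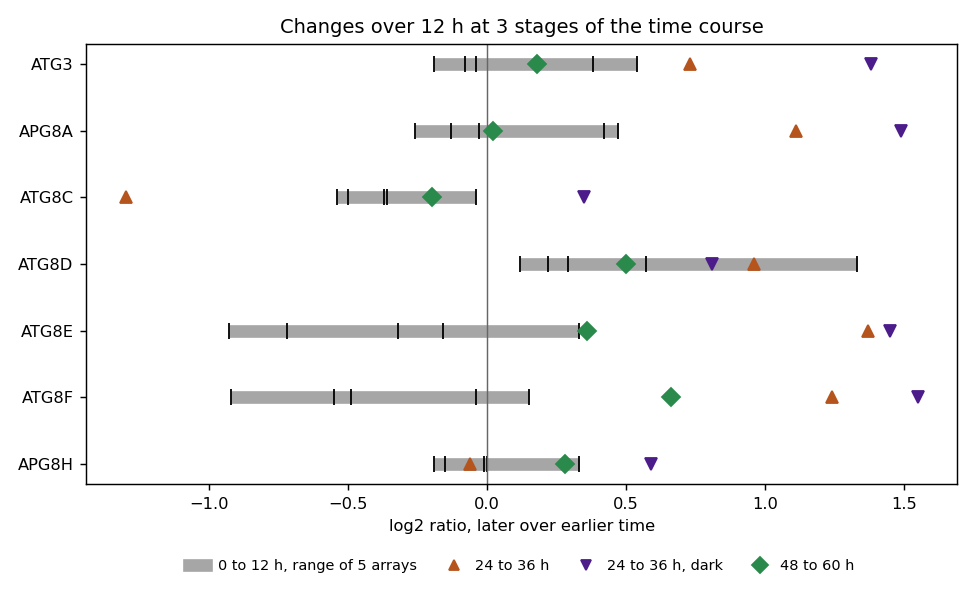
Centred log2 ratio over each interval of 12 h (horizontal axis) for the 7 genes; grey bars span the 5 arrays of 0 to 12 h, ticks mark those arrays, and symbols mark the single arrays of 24 to 36 h, 24 to 36 h dark and 48 to 60 h. ATG3, APG8A, ATG8E and ATG8F have both 24 to 36 h symbols to the right of their bars. The 48 to 60 h symbols of ATG8E, at 0.36, and ATG8F, at 0.66, lie there as well, and those of the other 5 genes lie within their bars.

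In the linear model over all arrays, in which every pair of times had a coefficient beside a common dye term, the median coefficient of the 7 genes was 0.98 at 36 h against 24 h, where the median of all targets was −0.03. On the dark comparison it was 1.13 against −0.02. For the other pairs of times the members' medians were smaller: 0.13 at 6 h, −0.02 at 12 h, 0.38 at 18 h, −0.11 at 24 h and 0.22 at 60 h, with medians of all targets between −0.04 and 0.03. The largest coefficients at 36 h were those of ATG8F, 1.55 ± 0.38, and ATG8E, 1.51 ± 0.48 (SE). On the dark comparison they were those of APG8A, 1.55 ± 0.38, and ATG8E, 1.31 ± 0.48 (SE). The difference between the change over 24 to 36 h and that over 0 to 12 h had a median of 0.90 over the members, and 1.05 with the dark array, against −0.03 and 0 over all targets.

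With limma and Benjamini-Hochberg adjustment over all targets, 0 of the 7 genes had an adjusted p under 0.05 in any comparison. The share of all targets called, over all arrays, was 0.00886% at 6 h, 4.11% at 12 h, 0% at 18 h, 0.0177% at 24 h, 1.54% at 36 h, 2.16% on the dark comparison and 0.585% at 60 h. For the differences from the 0 to 12 h change it was 1.28% for 36 h, 1.53% for the dark comparison and 0.432% for 60 h, again with 0 members called. These shares depend on the processing and on single arrays. With 6 h array 2 turned to its title, 0 targets were called at 12 h, 13 at 36 h and 10 on the dark comparison. With arrays scaled to 1 spread these counts were 202, 0 and 0. With the 3 arrays of 12 h from ScanAlyze 2.33 averaged, all of them were 0. Of all targets 464 were called at 12 h, but 0 without array 2, 3, 4 or 5 of that time and 1063 without array 1. When each replicate was left out in turn, 15 to 215 were called at 36 h, where all arrays gave 174, and 77 to 361 on the dark comparison, where they gave 243. At 36 h the 15 came without either array of 6 h. At an unadjusted p under 0.05, with limma, there were 5 members at 36 h, 4 of them higher, and 5 on the dark comparison, all higher. The shares of all targets at that level, in either direction, were 18.3% and 17.8%. At 12 h there were 2, ATG8D higher and ATG8F lower, against 20.7% of targets, and at 18 h 1, ATG8F higher, against 5.99%. At 6, 24 and 60 h there were 0, against 15%, 3.22% and 5.45% of targets. For the differences there were 4 with 36 h, 4 with the dark comparison and 0 with 60 h, against 17.9%, 17.8% and 8.28%. A comparison with 1 array borrows its spread from the replicated ones. Since the members were picked with these arrays known, nothing is read from their counts.

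**Figure D4:**
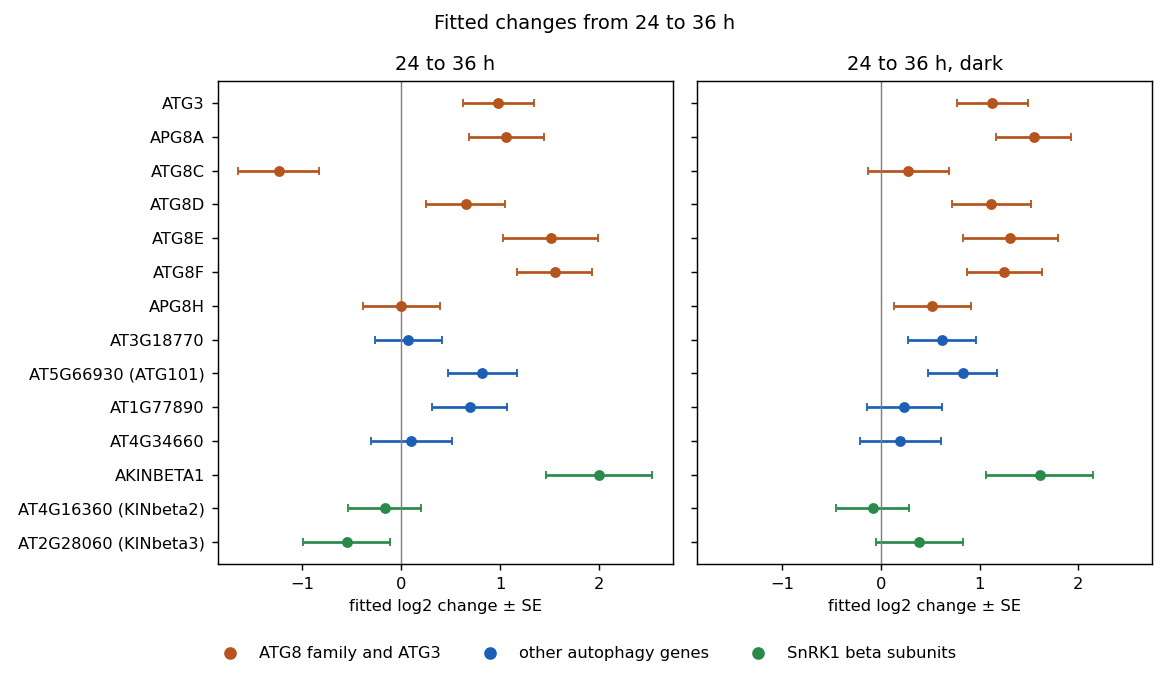
Fitted log2 change from 24 to 36 h ± SE (horizontal axis, the same scale in both panels) for the 7 genes, the other measured autophagy genes and the SnRK1 beta subunits, on the array without (left) and with (right) the dark mark. ATG8C is at −1.24 on the left and 0.28 on the right, and AKINBETA1 is farthest to the right in both panels, at 2.00 and 1.61.

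Agreement of sign was uneven across the replicated times. At 12 h 2 of the 7 genes had 1 sign on all 5 arrays, ATG8D higher and ATG8C lower, against 12.9% of targets. At 6 h 4 of 7 had 1 sign on both arrays, against 58.5% of targets. At 18 h 5 of 7 were higher on both arrays, against 25.2% of targets. Both arrays of 18 h held the later time in channel 1, and they correlated at r = 0.126 over all targets. The part of the dye in their shared signs was not tested. The 6 h arrays disagreed on the family as a whole, with a median over the 7 genes of 0.40 on array 1 and −0.24 on array 2. These arrays have opposite channel orders. The title of array 2 names its times in reverse of its channels. Its direction was taken from the channels.

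Dye terms of the other members were of similar or smaller size. The term was 0.60 ± 0.28 for ATG8F and 0.50 ± 0.26 for ATG3 (SE), larger in size than for 71.9% and 63% of all targets, with readings higher where channel 2 held the later time, and between −0.11 and 0.28 for the remaining genes. At 12 h ATG8F averaged −0.73 ± 0.26 (SD, n = 2) with the later time in channel 1 and −0.13 ± 0.33 (SD, n = 3) in channel 2. ATG3, APG8A, ATG8E and ATG8F were higher at 36 h in both channel orders, since the array without the dark mark held 36 h in channel 1 and the dark array held it in channel 2. For a single labelled comparison, both orders were run at 6 h and at 12 h.

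The profiles of the members over the 13 arrays were alike for some pairs and not for others. The 21 pairs had a median r of 0.333, from −0.275 for ATG8C with ATG8D to 0.923 for ATG8E with ATG8F. There were 7 pairs above 0.5, all of them among ATG3, APG8A, ATG8E, ATG8F and APG8H, and 5 below 0. Without the arrays of 36 h, over 11 arrays, the median was 0.172. ATG8E with ATG8F was still at 0.817, while APG8A with ATG8E went from 0.781 to 0.356. The points share arrays, array centring and the 0 h material. ATG8 genes are close in sequence and cDNA features can pick up RNA of a near copy, so a shared profile of ATG8E and ATG8F cannot be told apart from shared hybridisation here.

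**Figure D5:**
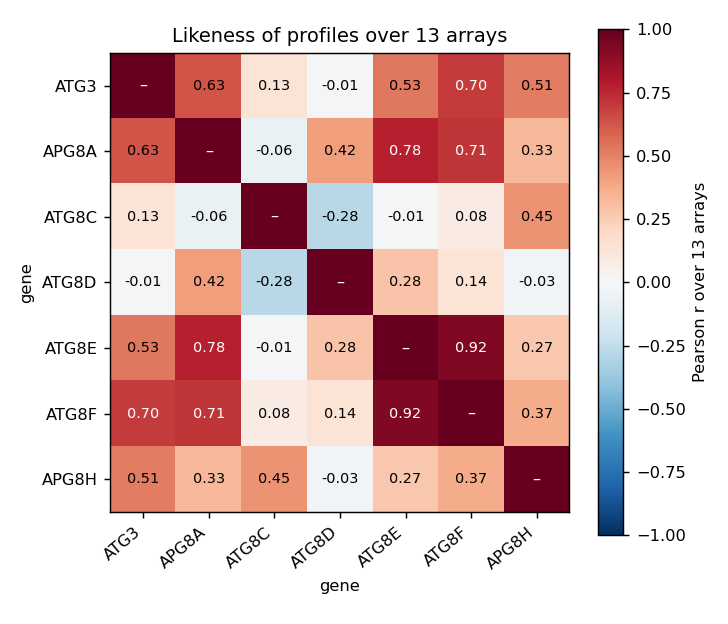
Pearson r of the centred log2 ratios over the 13 arrays for every pair of the 7 genes, in colour and as printed values. ATG8E with ATG8F is highest at 0.92, and ATG8C and ATG8D have low or negative r with most others.

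Among 3626 other named genes with values on all 13 arrays, the profiles most like the mean of the 6 ATG8 genes were those of HVA22C (r = 0.899), AT4G32480 (0.897), AT2G43610 (0.882), AT3G15356 (0.88) and AT1G80180 (0.871). Without the arrays of 36 h these were 0.78, 0.777, 0.706, 0.797 and 0.794. For single members the closest gene was AT1G44770 for ATG3 (r = 0.931), AT5G24490 for APG8A (0.943), AT3G50690 for ATG8C (0.922) and AT1G04970 for ATG8D (0.894). It was AT3G15356 for ATG8E (0.948), AT4G27450 for ATG8F (0.948) and AT2G03510 for APG8H (0.796). ATG8E and ATG8F thus had equally close neighbours, and APG8H the least close one. These are the highest of many values, over arrays that share material, and are a description only.

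Of 49 autophagy genes listed, 11 were measured: the 7 members and 4 others. All 7 measured genes of the list of 13 for conjugation of ATG8 to lipid are members, so the protease ATG4 and the activating enzyme ATG7 could not be set beside their substrates. The lists for ATG12 and ATG5 conjugation and for ATG9 membrane delivery had 0 measured genes. The others were AT5G66930, a gene with the synonym ATG101, a subunit of the ATG1 kinase complex that starts autophagosome formation, and AT3G18770, AT1G77890 and AT4G34660. Those last were placed on the lists of the ATG1 complex, the PI3-kinase complex and receptors and fusion by locus number, and they have no symbol in the tables used here. With limma, 0 of the 4 had an adjusted p under 0.05 in any comparison. At an unadjusted p under 0.05 there was 1 at 36 h and 1 on the dark comparison, AT5G66930 both times, and 0 in the others.

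AT5G66930 read −0.11, 0.32, −0.11, 0.18 and −0.09 on the arrays of 12 h, 0.72 at 36 h and 0.93 on the dark array. Both arrays of 36 h thus lay above every 12 h array, as for ATG3. Its coefficients were 0.82 ± 0.35 (SE, limma adjusted p = 0.25) and 0.83 ± 0.35 (SE, limma adjusted p = 0.245). The coefficients of the others at 12 h, 36 h and on the dark comparison were 0.13, 0.07 and 0.62 for AT3G18770, −0.03, 0.69 and 0.24 for AT1G77890, and −0.13, 0.10 and 0.20 for AT4G34660. The median of these 4 genes was 0.40 at 36 h and 0.43 on the dark comparison, and −0.01 at 12 h. Of 3 measured vacuolar proteases, which digest the delivered cargo, 0 were called at 12 h, at 36 h or on the dark comparison, with median coefficients of −0.12, 0.01 and −0.16. At an unadjusted p under 0.05 there was 1 at 36 h, AT4G01610, with a coefficient of 1.10 ± 0.43 (SE), and 0 in the other comparisons.

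Of 10 genes of TOR and SnRK1 signalling 3 were measured, all of them beta subunits of SnRK1. These subunits place the kinase in the cell and bind it to its partners. The gene lists were chosen with earlier results of these data known. The p-values of listed genes are therefore a description, and none is offered as support. AKINBETA1 read −0.11, −1.24, −1.71, −1.51 and −2.11 on the arrays of 12 h, 1.69 at 36 h and 1.92 on the dark array. It was lower on every 12 h array, array 1 least of all, and higher on both arrays of 36 h. It fell by 1.40 ± 0.23 at 12 h (SE, limma adjusted p = 0.0259). Its coefficients at 36 h and on the dark comparison, 2.00 ± 0.54 and 1.61 ± 0.54 (SE), did not pass (limma adjusted p = 0.106 and 0.155). The differences from the 12 h change were 3.40 ± 0.60 and 3.01 ± 0.58 (SE, limma adjusted p = 0.0381 and 0.0444). The size of the change held when single replicates were left out in turn, while the calls did not. Without array 2, 3, 4 or 5 of 12 h the adjusted p of the 12 h change was 0.0819, 0.159, 0.0708 or 0.206, at coefficients of −1.36, −1.40, −1.29 and −1.24, in fits that called 0 targets at 12 h, while without array 1 it was 0.0014 with a coefficient of −1.64. The difference at 36 h lost its call without any of arrays 2 to 5 of 12 h and without any array of 6 h or 18 h, at an adjusted p of 0.0505 to 0.13 and a difference of 3.11 to 3.60. The difference on the dark comparison lost it without any of arrays 2 to 5 of 12 h or either array of 6 h, at 0.0745 to 0.0837 and a difference of 2.84 to 3.01. KINbeta2 (AT4G16360) and KINbeta3 (AT2G28060), the other beta subunits, were not called. Their coefficients were −0.17 and −0.55 at 36 h, and −0.08 and 0.39 on the dark comparison.

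Lists of marker genes were read beside the family. They too were chosen with earlier results of these data known, so their p-values are a description. The 3 measured genes induced by dark and starvation were MCCA, MCCB and IVD, which break down leucine. Their coefficients were 2.85 to 3.19 at 36 h and 2.45 to 3.50 on the dark comparison. With limma, 2 of them passed an adjusted p under 0.05 at 36 h, against 1.54% of all targets. IVD, the other, had a limma adjusted p of 0.0503. On the dark comparison 3 passed, against 2.16% of all targets. Under 9 of 21 alternatives at 36 h, and 10 of 21 on the dark comparison, fewer of them passed, down to 0. The call of MCCA at 36 h was lost without either array of 6 h or without array 3 or 5 of 12 h, at a limma adjusted p of 0.0555 to 0.0641, with coefficients of 3.07 to 3.27 against 3.19 over all arrays. That of IVD on the dark comparison was lost without the same arrays, at 0.0643 to 0.0744, with coefficients of 3.22 to 3.26 against 3.24. Since their readings entered the choice of direction, their direction is no independent evidence.

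Of 3 measured leaf photosynthesis genes, SBPASE, an enzyme of the Calvin cycle, fell at 36 h and on the dark comparison, by 2.57 ± 0.38 and 2.92 ± 0.38 (SE, limma adjusted p = 0.0211 and 0.0139). The first of these calls was lost without either array of 6 h or without array 3 or 5 of 12 h, at an adjusted p of 0.0546 to 0.0585, with the change at −2.51 to −2.63. RCA, which activates Rubisco, fell at 12 h by 1.11 ± 0.23 (SE, limma adjusted p = 0.0362), a call lost without array 2, 3, 4 or 5 of 12 h, at 0.103 to 0.206 and −0.92 to −1.25, and kept without array 1, at −1.29 (limma adjusted p = 0.0103). RCA was not called at 36 h or on the dark comparison, with coefficients of −1.45 ± 0.55 and −1.50 ± 0.55 (SE). SBPASE was not called at 12 h, with −0.57 ± 0.16 (SE). The remaining gene, LHB1B2, a light-harvesting protein, was called at none of these times. Its coefficients were −0.46 at 12 h, −0.18 at 36 h and 0.78 on the dark comparison. The 2 measured root markers had 0 calls, also at an unadjusted p under 0.05 with limma at 12 h and 36 h, and 1 of them passed that level on the dark comparison. Of 3 seed markers 0 were measured. In bulk RNA, fewer cells of a type and less RNA per cell cannot be told apart, and the part of these markers in the values of the autophagy genes was not tested.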

How the data were processed

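The authors deposited 1 log2 ratio per feature and array. The base follows from the values, which pile up at −1 (159 times, against a mean of 20.4 at the 20 neighbouring steps). The arrays were read with ScanAlyze 2.33, 2.42 or 2.44, per the labels, and the normalisation, the genome build and the direction are not given in the sources used here. Before turning, the lowest r between arrays of one channel order was −0.14. Of the 12800 features, 5197 had 1 gene in the platform annotation, 214 several and 7389 none listed. Symbols were updated through the RefSeq gene table, which matched 5190.

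Ratios were centred on the array median, signed so that positive means higher at the later time, and averaged over the features of a gene, and targets with values on at least 10 of 13 arrays were kept, 11290 of 11292. All 7 members passed. limma 3.58.1 in R 4.3.3 (lmFit, eBayes) fitted a coefficient for every pair of times beside a common dye term (0.5 where channel 2 holds the later time, −0.5 otherwise), with Benjamini-Hochberg adjustment over all targets. The fitting code was tested on simulated data.

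The members and gene lists were chosen with earlier results of these data known. All members are named, as are listed genes past the threshold, the 2 largest changes each way of each autophagy list, and the genes most like the members by Pearson r. AT4G01610 was named after its value was seen. Alternatives covered centring, dye term, scaling, the turned 6 h array, averaging, filter, robust eBayes and leaving out each replicate. Subsets by software version or channel order, leaving out the highest ATG3 feature, and setting array 5 of 12 h apart for ATG8D were chosen after seeing the data. The number of arrays limits the precision. No sequences or positions are given, and a planned description of promoter motifs was not run.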

Additional observations from a re-analysis of the deposited data

Results flagged for a closer look

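ATG8C read 0.35 on the dark array of 36 h against 24 h and below 0 on all 5 arrays of 12 h against 0 h, so every array of each comparison lay on its own side of 0. The difference was not tested, since ATG8C was chosen with these arrays known and the dark comparison has 1 array. AKINBETA1 differed between the interval of 24 to 36 h and that of 0 to 12 h by 3.40 ± 0.60, and with the dark array by 3.01 ± 0.58 (SE, limma adjusted p = 0.0381 and 0.0444). It was lower on 5 of 5 arrays of 12 h and higher on both arrays of 36 h. Its list was chosen with earlier results of these data known, so these p-values are a description. An array far from its group was looked for in the 12 h values of the 7 members, with Dixon's critical value of 0.71 for 5 arrays, and 0 of 7 were found. Chance alone would give about 1 in 20.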

How the results depend on the processing

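Up to 23 alternatives gave a value for each time, 23 at 6 and 12 h and 21 at the others. Under them the members' median coefficient ran from 0.71 to 1.02 at 36 h, 0.91 to 1.38 on the dark comparison, −0.18 to 0.06 at 12 h, 0.20 to 0.47 at 18 h, −0.15 to 0.02 at 24 h and 0.07 to 0.34 at 60 h. Against a residual SD of 0.218 it moved at 36 h to 0.71 with arrays scaled to 1 spread, and on the dark comparison to 1.38 without a dye term, with ScanAlyze 2.44 arrays alone and with channel 2 arrays alone. At 6 h it was −0.11 to 0.56 when either array was left out, −0.29 with ScanAlyze 2.33 alone, 0.40 with 2.44 alone or channel 2 alone and −0.24 with channel 1 alone. The cause was not tested.

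Of 448 recomputed counts of called genes 2 differed. With features not averaged 1 member was called on the dark comparison, the first ATG3 feature at 2.23 ± 0.44 (SE, limma adjusted p = 0.0341). With values required on all arrays 1 was called for the difference at 36 h. Of the members' coefficients 43 of 1057 moved by more than the spread between arrays, and of their differences 16 of 441.

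The call of AKINBETA1 at 12 h was lost under 9 of 23 alternatives (limma adjusted p 7.24e-07 to 0.998), and those of its differences under 14 and 13 of 21 (0.0247 to 0.36 and 0.021 to 0.196), with 0 reversed. The 12 h coefficient of AKINBETA1 ran from −1.91 to −0.68 under the 23 alternatives, smallest in size with ScanAlyze 2.44 arrays alone. AT5G66930 was not called under any of 21. No paired analysis was possible because the labels give no replicate numbers that the comparisons share. Single arrays at 24, 36 and 60 h limit what can be told of any gene.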
